A study of Mus musculus with 2 samples.

Results

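The cathepsins are the proteases of the lysosome, and 10 of their genes (Ctsa, Ctsb, Ctsc, Ctsd, Ctse, Ctsh, Ctsk, Ctsl, Ctss and Ctsz) were examined in the liver of apoE-KO mice on normal chow or on a high-Chol diet. The members were taken by gene symbol from the 27962 gene names of the array. By that rule 9 of the 10 were found, and Ctsa was reached through its RefSeq accession, since the array design lists it under the older name Ppgb. The 10 genes had 15 probes, and 9 genes passed the filter on dim probes and were tested among 16728 genes. Ctsk did not pass, so it has values but no test.

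Both groups were male apoE-KO mice on the C57BL/6 background, which lack apolipoprotein E and are hypercholesterolemic already on normal chow. From 10 weeks of age they received normal chow or the same chow with 1.25% Chol added (the high-Chol diet) for 1 week. Total liver RNA was hybridised in 1 colour to 3 whole-genome arrays per diet, described as independent experiments. No wild-type mice were on these arrays, so a difference is one between diets within apoE deficiency. The labels do not say how many mice gave the RNA of an array, and p-values measure only the spread between the arrays.

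Cathepsins are made as inactive precursors, carried to the lysosome mainly by the mannose 6-phosphate receptors and activated by its acid. Most are cysteine proteases (Ctsb, Ctsc, Ctsh, Ctsk, Ctsl, Ctss and Ctsz), Ctsd and Ctse are aspartic proteases, and Ctsa is a serine carboxypeptidase. In the liver, hepatocytes, Kupffer cells (the resident macrophages) and other phagocytes hold different sets of them, with Ctss best known from antigen-presenting cells.

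The sequences that follow are shown because Ctss, Ctsc and Ctsd were among the cathepsins with higher means on the high-Chol diet, given further on, while Ctsa, with the motif of Ctsd, was not. RefSeq promoter windows were at hand for 7 of the 10 genes (Ctsb, Ctse and Ctsh had no entry). Each line runs 5′ to 3′ along the gene's strand in build GRCm38.p6, from 160 bases before the RefSeq start to 15 bases from it. Capitals mark the letters of 2 motifs that were searched on both strands, an E-box of the kind bound by the MiT/TFE factors of lysosomal genes (TCACGTGA) and an ETS-type motif of the kind bound by PU.1, a factor of myeloid cells (GAGGAAGT, here as its complement). The motifs were chosen with the differences known.
Ctss, chr3:95526626-95526800, plus strand: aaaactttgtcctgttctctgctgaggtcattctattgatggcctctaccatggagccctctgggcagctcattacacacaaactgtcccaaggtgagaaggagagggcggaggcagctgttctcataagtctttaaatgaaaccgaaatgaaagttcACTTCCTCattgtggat
Ctsc, chr7:88277925-88278099, plus strand: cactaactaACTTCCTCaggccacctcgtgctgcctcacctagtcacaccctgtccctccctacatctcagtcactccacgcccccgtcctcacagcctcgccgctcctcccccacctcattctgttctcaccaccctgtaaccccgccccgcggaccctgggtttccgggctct
Ctsd, chr7:142387813-142387987, minus strand: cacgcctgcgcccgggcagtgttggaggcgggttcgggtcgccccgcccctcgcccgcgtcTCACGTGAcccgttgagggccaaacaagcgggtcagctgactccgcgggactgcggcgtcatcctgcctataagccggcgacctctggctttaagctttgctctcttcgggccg
Ctsa, chr2:164833613-164833787, plus strand: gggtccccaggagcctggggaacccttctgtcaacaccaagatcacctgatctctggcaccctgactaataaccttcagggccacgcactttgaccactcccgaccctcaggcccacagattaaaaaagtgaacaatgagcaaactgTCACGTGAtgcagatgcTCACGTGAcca
Of 32851 RefSeq windows, 3.2% held the ETS-type motif and 0.974% held TCACGTGA. Ctss and Ctsc each had 1 ETS-type motif, from base -2 and from base -151 relative to the start. Ctsd had 1 TCACGTGA, from base -99, and Ctsa had 2 in its second window, from base -13 and from base 5. The shorter core CACGTG, which lies inside every TCACGTGA, was in 7.15% of windows and also occurred in that of Ctsl, from base -236, and at base -245 of Ctsd. None of the motifs was found in the windows of Ctsk and Ctsz. A match is a description of letters only.

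The probes are 60-base oligonucleotides, for which the array annotation gives mm7 positions but no exon or UTR. Those of Ctsk and Ctsz shown here lie in coding sequence, because translation in the open frame gives the conserved residues around the active site. Capitals mark the codon of the active-site histidine of Ctsk and of the active-site asparagine of Ctsz.
Ctsk probe, chr3:95380674-95380918, plus strand, across an intron: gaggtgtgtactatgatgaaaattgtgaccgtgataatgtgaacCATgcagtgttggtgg
Ctsz second probe, chr2:174172977-174173036, minus strand: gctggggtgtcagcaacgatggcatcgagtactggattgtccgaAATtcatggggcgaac

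The signals were log2 values from which the 75th percentile of the array was subtracted, so 0 is that percentile, and different probes cannot be set against each other. The percentile was 271 to 373 intensity units on the 4 arrays of slide 1 (the 3 normal chow arrays and high-Chol array 1) and 762 and 799 on the 2 arrays of slide 2 (high-Chol arrays 3 and 2). Between 50.5% and 67.2% of spots were well above background. All 11 hepatocyte markers measured, albumin (Alb) among them, were well above background on the 6 arrays. The Apoe probe was also well above background on all 6 arrays, from 1.66 to 3.81, and with no wild-type array it does not check the genotype.

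Under the high-Chol diet Ctss, Ctsc, Ctsb and Ctsd had higher means, by 1.30-fold to 1.85-fold, while Ctsz, Ctse, Ctsa, Ctsl and Ctsh had slightly lower ones (slightly higher for Ctsz, Ctsa and Ctsl with quantile normalization, and for these and Ctsh with normexp background). None of the 9 genes was called in either direction, that is, passed a Benjamini-Hochberg adjusted p of 0.05 over all genes in limma, where 2.69% of all genes were called higher and 0.227% lower. Before adjustment, 4 of the 9 had a limma p under 0.05 and a higher mean and 0 a lower one, beside 12.3% of all genes upwards and 8.83% downwards. The test of the methods gave the same counts and made no call after adjustment. With normexp background 2 cathepsins had a limma p under 0.05 and a higher mean, with median scaling 1 and without the filter 3. Shares of all genes at that p were not computed for these alternatives. Among the 8 members with a value on all 6 arrays, the diets did not overlap for 3 higher (Ctsc, Ctsb and Ctsd) and 1 lower (Ctsa). The same held for 11.9% of all genes higher and 14.0% lower. The median difference was -0.07 over the 9 cathepsins and -0.02 over all genes. Under normexp background 0 cathepsins were free of overlap in either direction. Median scaling left 2 higher and 1 lower, averaging the probes of each gene 3 and 0, and keeping outlier spots 4 and 1. Shares of all genes free of overlap were not computed for these alternatives. Without high-Chol array 1, every high-Chol array is on slide 2 and every normal chow array on slide 1. Diet and slide cannot be told apart in that fit. There, Ctsc and Ctsb passed the threshold (limma adjusted p = 0.0488 and 0.0445), as did Ctss with 1 high-Chol array left (difference 1.09). Of the whole array, 2322 genes were called higher instead of 450, and 759 lower instead of 38.

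**Figure D1:**
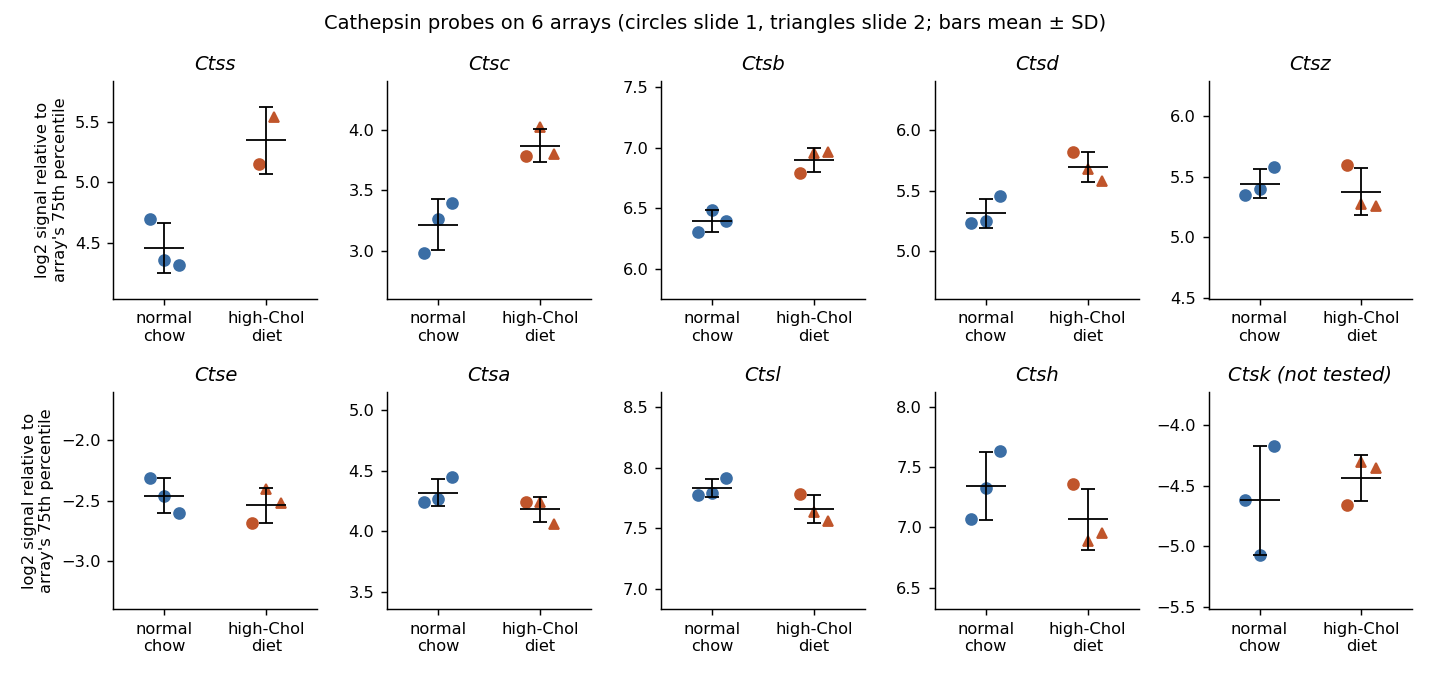
Each panel plots 1 cathepsin gene, with the log2 signal (the 75th percentile of the array is 0) on the y axis and the diet on the x axis. Points are arrays (2 high-Chol arrays for Ctss; circles slide 1, triangles slide 2), bars are mean ± SD, and every panel spans at least the same range. The high-Chol points of Ctss, Ctsc, Ctsb and Ctsd all lie above the normal chow points, and the Ctsk probe sat between -5.07 and -4.17.

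Ctss, the cysteine protease that trims the invariant chain from class II molecules in antigen-presenting cells, had the largest difference of the 9 tested members. Its log2 signals were 4.69, 4.36 and 4.32 on normal chow and 5.15 and 5.54 on high-Chol arrays 1 and 3. The spot of high-Chol array 2 was flagged as an outlier by the scanner software and left out, so this fit rests on 2 high-Chol arrays. Both high-Chol values were above the 3 normal chow values. The difference was 0.89 (SE 0.22, 95% interval 0.36 to 1.42), a 1.85-fold higher mean, with a limma adjusted p of 0.107. With the outlier spot kept the difference was 1.01 and the adjusted p 0.0534.

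Ctsc, also called dipeptidyl peptidase I, removes dipeptides from the granule serine proteases of neutrophils, mast cells and cytotoxic lymphocytes and so activates them. Its signals were 2.98, 3.26 and 3.40 on normal chow, against 3.79, 4.02 and 3.80 under the high-Chol diet. The groups did not overlap. The difference was 0.65 (SE 0.17, 95% interval 0.25 to 1.06) and the limma adjusted p 0.106. Of the 6 tested granule proteases that cathepsin C matures, none was called. Gzma, a granzyme of cytotoxic lymphocytes, had the largest difference among them, 1.76 (SE 0.41, limma adjusted p 0.0795), and Gzmb, another granzyme, had 0.73 (limma adjusted p 0.121). With normexp background these were -0.24 and -0.40, and 0 of the 6 lay above 0 instead of 5. Asking for a signal above background on all 6 arrays left 4 of the granule proteases, 3 of them above 0, with a median of 0.35.

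Ctsb, an abundant cysteine protease with endopeptidase and carboxypeptidase activity, gave 6.30, 6.49 and 6.39 on normal chow. Its high-Chol arrays gave 6.79, 6.95 and 6.97, all above these. The difference was 0.51 (SE 0.14), or 1.42-fold, with a limma adjusted p of 0.128. The dimmer second probe of Ctsb read -0.75, -0.75 and -0.48 against 0.23, -0.07 and -0.02, again without overlap. Its difference was 0.71 (SE 0.17, limma adjusted p 0.0856 over all probes, of which 2.36% were called higher).

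Ctsd, the main aspartic protease of the lysosome, gave 5.23, 5.25 and 5.45 on normal chow, against 5.82, 5.68 and 5.58 under the high-Chol diet. The lowest high-Chol array stood 0.13 above the highest normal chow array, so the gap was small. The difference was 0.38 (SE 0.15, limma adjusted p 0.217), a 1.30-fold higher mean. Its second probe gave 0.54 (SE 0.19, adjusted p over all probes 0.185) and did not overlap between the diets either. Both probes of Ctsb and both of Ctsd thus had higher means on the high-Chol diet.

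Ctsz, a carboxypeptidase also called cathepsin X, overlapped between the diets on both probes. The brighter read 5.35, 5.40 and 5.58 on normal chow, against 5.60, 5.27 and 5.26 under the high-Chol diet. The difference was -0.07 (SE 0.16, 95% interval -0.45 to 0.32), and the second probe gave -0.03. Ctse, an aspartic protease of gastric epithelium and of some immune cells, was dim, between -2.69 and -2.31, with a difference of -0.08 (SE 0.16). Blocking on slide made that -0.23, quantile normalization -0.28 and normexp background -0.56. Of the other genes listed as marks of stomach or other epithelium, only Tff1 was tested, at -0.42 (limma adjusted p 0.229).

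Ctsa protects beta-galactosidase and neuraminidase in a complex besides being a carboxypeptidase. Its brightest probe read 4.25, 4.26 and 4.44 on normal chow, against 4.24, 4.24 and 4.06 under the high-Chol diet. These did not overlap, but by a margin of only 0.0013. The difference was -0.14 (SE 0.15). Its 3 probes disagreed, with -0.14 and -0.31 on the bright probes and 0.29 on the dim one, and none was called. The partners of Ctsa in that complex, Glb1 and Neu1, had differences of 0.07 and -0.12 (0.20 and 0.19 with normexp background).

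Ctsl, a broad endopeptidase, gave 7.78, 7.80 and 7.92 on normal chow, against 7.78, 7.63 and 7.56 under the high-Chol diet. The difference was -0.17 (SE 0.14, 95% interval -0.51 to 0.17). Ctsh, an aminopeptidase, gave 7.07, 7.33 and 7.63 against 7.36, 6.89 and 6.95, with overlap. Its difference of -0.28 (SE 0.21) had an interval from -0.77 to 0.22. Ctsk, the collagenase of osteoclasts, was well above background on 1 normal chow array and 2 high-Chol arrays only. Its signals of -4.62, -5.07 and -4.17 against -4.66, -4.30 and -4.35 gave no test.

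**Figure D2:**
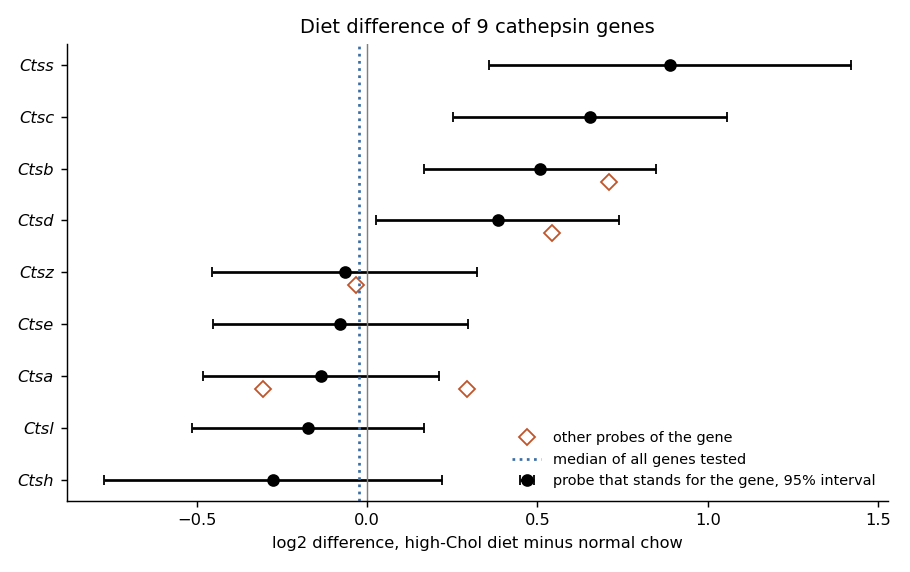
The log2 difference of each of the 9 tested genes (high-Chol diet minus normal chow) is plotted on the x axis, with black points for the probe that stands for the gene, bars for its 95% interval and open diamonds for its other probes. The intervals of Ctss, Ctsc, Ctsb and Ctsd lie above 0, those of the other 5 genes include 0, and the dotted line marks the median of all genes at -0.02.

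The slide was set beside these values, because 2 of the 3 high-Chol arrays were on slide 2 and all normal chow arrays on slide 1. On slide 1 alone, high-Chol array 1 stood above all 3 normal chow arrays for Ctss (by 0.69 over their mean), Ctsc (0.57), Ctsd (0.51), Ctsb (0.39) and Ctsz (0.16). On that slide Ctsh (0.01) and Ctsl (-0.05) stood close to the normal chow mean, and Ctse (-0.23) and Ctsa (-0.08) stood below all 3 normal chow arrays. Within the high-Chol group, the slide 2 mean minus slide 1 was 0.39 for Ctss, 0.23 for Ctse, 0.17 for Ctsb and 0.12 for Ctsc. It was -0.43 for Ctsh, -0.33 for Ctsz, -0.19 for Ctsd and Ctsl and -0.09 for Ctsa. Fitted with the slide as a block, the same 4 values were the differences of Ctss, Ctsc, Ctsd and Ctsb, with limma adjusted p from 0.49 to 0.603. In that fit 11 genes of the whole array were called higher. The signs of Ctsh and Ctsz turned with the slide, and their lower means over all arrays rest on slide 2.

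A ratio of 2 cathepsins on the same array does not change when the whole array is scaled by a factor. Of the 36 pairs among the 9 genes, 20 did not overlap between the diets, 5 of them with Ctss, which has 2 high-Chol arrays. Of the 28 pairs with a value on all 6 arrays 15 did not overlap, beside 26.9% of all such pairs of genes. The 20 were the pairs that set Ctss, Ctsc, Ctsb or Ctsd against any of the other 5 genes, with changes from 0.45 to 1.08 on the log2 scale. None of the 16 pairs within the 4 genes or within the 5 genes was free of overlap between the diets. The grouping of the 4 follows the measured differences, so it is a description. The Ctsb to Ctsh ratio was -0.77, -0.84 and -1.24 on normal chow, against -0.57, 0.07 and 0.01 under the high-Chol diet. That is a change of 0.78, with an exact two-sided permutation p of 0.1. This p is the smallest that 3 against 3 arrays allow, so no pair could pass a threshold of 0.05.

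**Figure D3:**
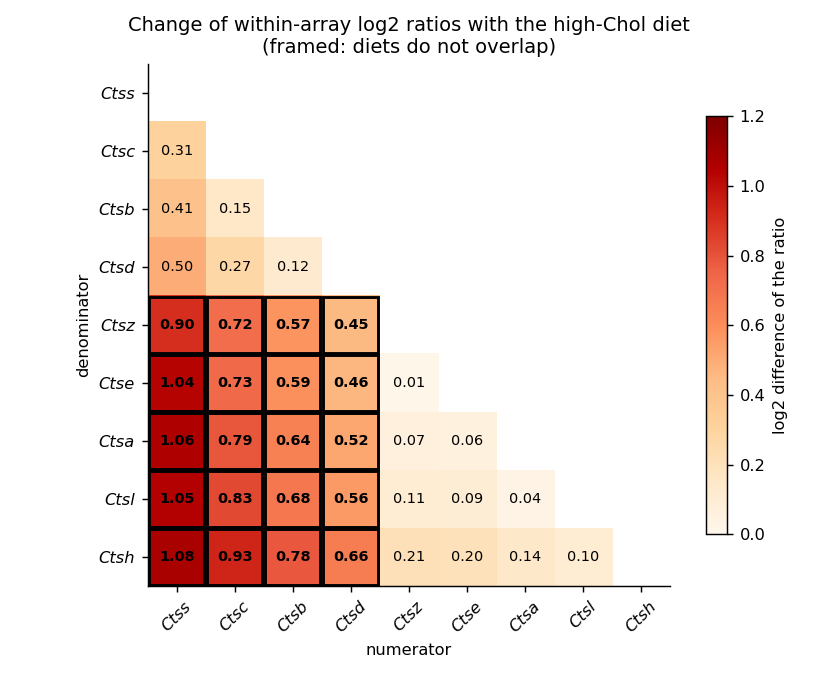
Each cell gives the change with the high-Chol diet in the within-array log2 ratio of the gene on the x axis (numerator) to the gene on the y axis (denominator), from 0 to 1.08, and a frame marks ratios whose 3 normal chow and 3 high-Chol arrays (2 for Ctss) do not overlap. The 20 framed cells form the block of Ctss, Ctsc, Ctsb and Ctsd over Ctsz, Ctse, Ctsa, Ctsl and Ctsh.

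Macrophage markers moved with the diet in the same arrays. Of 20 listed markers 19 were tested, all 19 had a higher mean on the high-Chol diet, 9 were called higher, and the median difference was 0.86. Gpnmb passed the filter through the high-Chol arrays alone. Asking for all 6 arrays, where a dropped spot does not decide, left 17 markers. All 17 had a higher mean, with a median of 0.82, and 7 were called. The mean log2 level of the 19 was 1.63 to 1.73 on the normal chow arrays and 2.91 to 3.20 on the high-Chol arrays. Gpnmb, a glycoprotein of lipid-laden macrophages, rose at least 63.1-fold (limma adjusted p 0.00187), where the bound replaces the normal chow arrays, none of them well above background, by the lowest measurable signal. The bound rests on the handling of the background, and the log2 difference of Gpnmb with normexp background was 2.60. Trem2, a lipid-sensing receptor of macrophages, rose by 3.37 (adjusted p 0.0064), and Ms4a7, a membrane protein of macrophages, by 2.35 (adjusted p 0.0259), and with normexp background these 2 had 2.59 and 0.57. With normexp background all 19 still had a higher mean but none was called, as was no gene of the whole array. With slide as a block 1 of the 19 was called, and leaving out 1 array left 2 to 4 calls, or 12 without high-Chol array 1. In a piece of liver, more macrophages and more RNA per macrophage cannot be told apart.

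Set against the mean of the 16 macrophage markers measured above background on every array, which was 2.36 to 2.46 on normal chow and 3.30 to 3.50 on the high-Chol diet, 2 cathepsins overlapped between the diets and 7 were lower. A gene with no difference of its own is lower on this scale, and 78.4% of all genes with a value on all 6 arrays were lower without overlap and 1.38% higher, beside 7 and 0 of the 8 such cathepsins. The share of the cathepsins was thus near that of all genes. With normexp background 5 cathepsins did not overlap, but the share of all genes was not computed for that background. Ctss stood 2.23, 1.97 and 1.95 above that mean on normal chow, against 1.85 and 2.08 under the high-Chol diet, a change of -0.09. Ctsc changed by -0.36 against the markers, with overlap. Ctsb changed by -0.51 and Ctsd by -0.63, without overlap, and Ctsz, Ctse, Ctsa, Ctsl and Ctsh by -1.08 to -1.29. The exact two-sided permutation p was 0.6 for Ctss and 0.1, the smallest possible, for each of the 7. What part the macrophage markers have in the cathepsin differences was not tested.

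Other cell types were counted in the same way. Of 7 tested neutrophil markers 3 were called higher. S100a8 rose by 3.21 (1.07 with normexp background) and S100a9 by 2.90, both calcium-binding proteins of neutrophils. Retnlg, a secreted protein of neutrophils, rose at least 3.76-fold. That bound holds for the main background only, as Retnlg had -0.22 with normexp background. With normexp background 3 of the 7 lay above 0, Retnlg not among them, and the median was -0.19 instead of 2.18. The 4 markers that exceeded background on every array had a mean of -1.66 to -1.39 on normal chow and -0.010 to 0.63 on the high-Chol diet. Over all 7, of which Retnlg was above background on no normal chow array and Ltf and Mmp9 on 1, the mean was -2.95 to -2.84 and -1.56 to -0.75. Of 5 tested dendritic cell markers, Itgax, an integrin of dendritic cells and macrophages, was called higher by 3.27 (0.48 with normexp background), with 2 of 3 normal chow arrays above background. In that list 3 of the 5 had a higher mean and 2 a lower one (Flt3 at -0.26 and Zbtb46 at -0.57), and the median was 0.39 (-0.39 with normexp background, -0.10 with slide as a block). Of 11 tested lymphocyte and NK cell markers, Nkg7, a granule protein of cytotoxic lymphocytes, was called higher by 1.18 (0.0048 with normexp background, where 2 of the 11 lay above 0 instead of 8). Of 7 stellate cell markers, Col1a1, a chain of type I collagen, was called higher by 1.04 (0.54 with normexp background), and 5 of the 7 had a higher mean. No call was made among 9 endothelial markers, of which 6 had a higher mean and 3 a lower one. Their median was 0.18 (-0.05 with median scaling), and Cdh5 had the largest difference (0.94, limma adjusted p 0.0719). Nor was a call made among 4 cholangiocyte markers, of which 3 had a lower mean, with Epcam at -0.48. None of the 11 hepatocyte markers was called and 10 had lower means, with Apoa1 at -0.57 and a median over the 11 of -0.30. That median was -0.05 with normexp background, where 4 of the 11 lay above 0, and -0.11 with quantile normalization. Their part in the cathepsin differences was not tested.

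The class II molecules, whose invariant chain and peptides cathepsins process, rose together. All 9 genes tested were called higher, with a median difference of 1.37 (1.1 to 1.48 under the other scalings, 8 of 9 above 0 with normexp background). Ciita, the transactivator of class II genes, rose by 1.93 (SE 0.18, limma adjusted p 0.00627), with 2 of 3 normal chow arrays above background, and had -0.14 with normexp background. H2-Aa rose by 1.66 (0.98 with normexp background) and H2-Ab1 by 1.58, the chains of the I-A molecule. Cd74, the invariant chain that Ctss trims, read 1.90, 1.88 and 1.74 on normal chow, against 3.03, 3.50 and 3.10 under the high-Chol diet. Its difference of 1.37 (limma adjusted p 0.0123) stood beside 0.89 for Ctss, and that gap was not tested. With slide as a block none of the 9 was called. Leaving out normal chow array 2 left 1 call, normal chow array 3 left 5, and high-Chol array 2 left 4.

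Other lysosomal genes were counted in 4 lists (processing and delivery, other hydrolases, membrane and vacuolar ATPase). Of their 84 tested genes 5 were called higher, beside 2.69% of all genes, and none lower, beside 0.227%. A lower mean was seen for 50 of the 84, and for 34 with normexp background, 44 with quantile normalization and 70 with median scaling. With slide as a block none was called, leaving out 1 array left 1 to 3 higher, and without high-Chol array 1 there were 9 higher and 4 lower. Lgmn, the legumain that cleaves cathepsin precursors to their mature chains, was the 1 call among 15 genes of processing and delivery. Its signals were 3.51, 3.33 and 3.57 on normal chow, against 4.32, 4.55 and 4.47 under the high-Chol diet, a rise of 0.97 (SE 0.15, limma adjusted p 0.0237). Psap, the precursor of the saposins, had 0.64 (limma adjusted p 0.0928). The mannose 6-phosphate receptors Igf2r and M6pr, which carry cathepsins to the lysosome, had -0.35 and -0.13 (0.22 for M6pr with normexp background), and Sort1, a further sorting receptor, had 0.13 (-0.11 with median scaling).

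The other 4 calls were among 15 lysosomal membrane genes, whose median was -0.13 (0.08 with normexp background and 0.03 with quantile normalization). Cd68, a macrophage lysosomal protein, rose by 1.74 (limma adjusted p 0.00601), Cd63, a tetraspanin, by 1.62 (0.0294 adjusted) and Laptm5, a protein of blood cell lysosomes, by 1.37 (0.00895 adjusted, 0.69 with normexp background). Slc11a1, the metal transporter of phagosomes, rose by 1.22. At the other end Npc1, which exports Chol from the lysosome, read 1.23, 1.69 and 1.90 on normal chow, against 1.12, 0.48 and 0.70 under the high-Chol diet. The groups did not overlap, and the difference was -0.84 (SE 0.24, limma adjusted p 0.135; -0.48 with normexp background). None of the 36 other hydrolases was called, 24 had a lower mean, and the median was -0.09 (0.03 with normexp background, where 20 had a higher mean). The largest difference among them was that of Gusb, the lysosomal beta-glucuronidase, at 0.59 (limma adjusted p 0.118). None of the 18 subunits of the vacuolar ATPase, the proton pump that acidifies the lysosome, was called, with Atp6v1b2 at 0.80 and Atp6v0a2 at -0.65. The 4 MiT/TFE factors lay between -0.06 (Tfe3) and 0.18 (Tfec), with 3 of the 4 above 0. None lay above 0 with normexp background or median scaling, and 1 with quantile normalization.

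**Figure D4:**
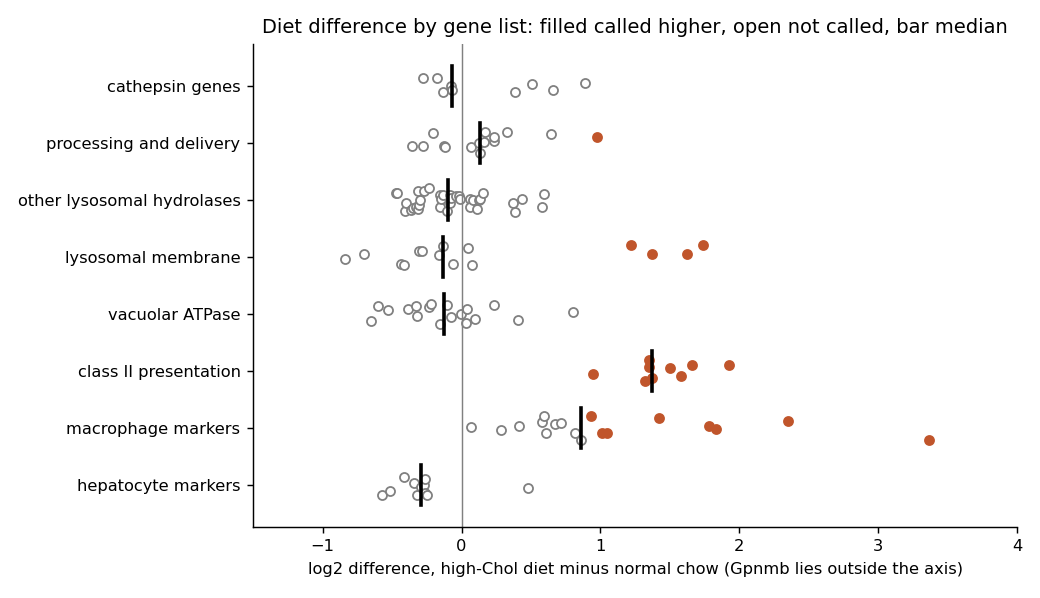
Each point is a gene, placed by its log2 difference (high-Chol diet minus normal chow) in the row of its list, filled where called higher by limma and open where not called, and the bar is the median of the list. No cathepsin is filled, all 9 class II genes are, and the 4 filled lysosomal membrane genes stand apart from the other 11. Gpnmb among the macrophage markers lies outside the axis.

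The inhibitors of cathepsins, which bind the active enzymes, were listed too, and 12 of the 21 with a probe were tested. Of the 12, 9 had a higher mean, and the median was 0.82 (0.04 with normexp background, where 6 lay above 0). Stfa2l1, Stfa1, Cst6 and Cst13 passed the filter through the high-Chol arrays alone. Asking for all 6 arrays left 8 inhibitors, 5 with a higher mean and a median of 0.10. Stfa2l1, a stefin, was called higher, with no normal chow array above background. It was at least 1.13-fold higher with the main background only, and had -0.55 with normexp background. No other inhibitor was called. Stfa1 and Cst6 had 1.19 and 1.52 and Cst13 slightly more, each with 1 or 2 normal chow arrays above background and below 0 with normexp background. The serpins Serpinb1a, Serpina3g and Serpinb6a had 1.11, 0.87 and 0.78 (limma adjusted p 0.154, 0.171 and 0.0622), and Stfa3, a stefin, had -0.84. Cst3, the secreted cystatin C, and Cstb, the stefin of the cytosol, had 0.09 and 0.11 (-0.15 and -0.12 with median scaling). The fetuin Fetub and the kininogen Kng1, plasma proteins made by hepatocytes, had -0.57 and -0.19 (0.14 for Kng1 with normexp background). Of 15 further cathepsins and related genes 5 were tested and none was called. Ctsw, a cathepsin of cytotoxic lymphocytes, had the largest difference among them, 1.04 (SE 0.27, limma adjusted p 0.103), Ctsg, a granule serine protease of neutrophils, had 0.50, and Ctsf, a cysteine cathepsin of many tissues, had -0.38 (limma adjusted p 0.234). With normexp background Ctsw had -0.23 and Ctsg -0.17, and 1 of the 5 lay above 0 instead of 3.

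Across 20 other ways of processing the arrays, named with the methods, the differences of Ctss, Ctsc, Ctsb and Ctsd were above the median of all genes in every one. Relative to that median, Ctss ranged from 0.72 to 1.55, Ctsc from 0.57 to 1.03, Ctsb from 0.45 to 0.99 and Ctsd from 0.33 to 0.79. These alternatives use the same arrays and are not separate evidence. Ctsz was above the median in 9 of the 20, Ctse and Ctsl in 4, Ctsh in 3 and Ctsa in 2.

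**Figure D5:**
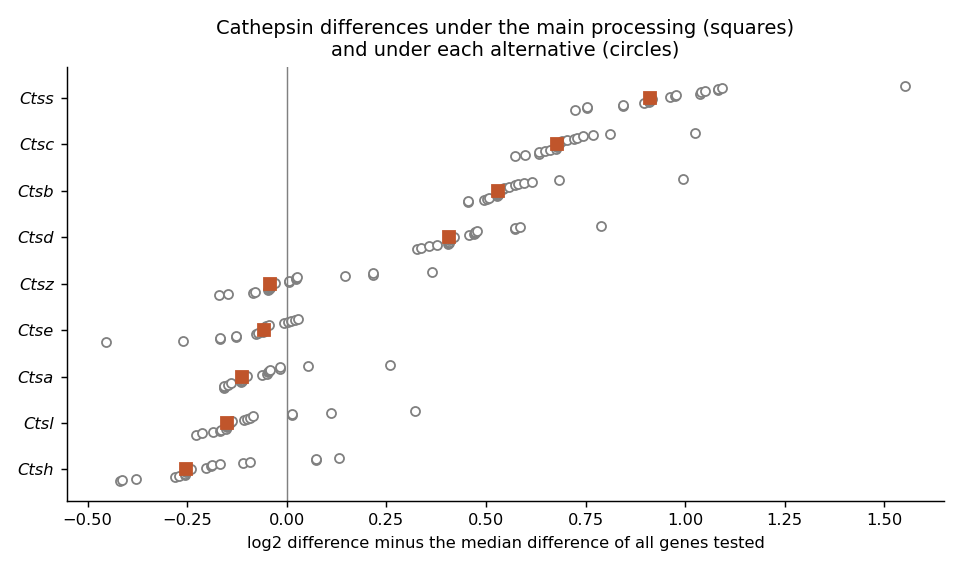
The x axis is the log2 difference of each cathepsin (high-Chol diet minus normal chow) minus the median difference of all genes tested, with a square for the main processing and a circle for each of 20 alternatives. Ctss, Ctsc, Ctsb and Ctsd stay above 0 throughout, and the other 5 genes have circles on both sides of 0.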

How the data were processed

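The authors hybridised liver RNA to 1-colour Agilent Whole Mouse Genome arrays and deposited the scanner output, background-subtracted and spatially corrected signal intensity per spot, from Feature Extraction 9.5 (slide 1) and 9.1 (slide 2), and a log2 table, 1 column per diet, with scaling not given in the sources used here. From the deposited intensity, log2 values minus the array's 75th percentile were computed, and control spots (1639) and outlier-flagged spots were left out. A probe was kept if well above background on every array of at least 1 diet, and the brightest kept probe stood for its gene. The diets were compared with limma 3.58.1 (lmFit and eBayes, R 4.3.3), with Benjamini-Hochberg adjustment over all 16728 genes and a threshold of 0.05; a gene past it is "called". A fold is 2 to the power of the difference.

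The members and the gene lists were chosen with earlier results of these data known, so no p adjusted over a list alone is given. All 10 members are named, and from each other list the 3 called genes of largest difference per direction, or up to 2 where none was called, plus a few chosen after their values were seen (Alb, Ctsf, Psap, Igf2r, M6pr, Sort1, Glb1, Neu1, Cd74, Npc1, Slc11a1, inhibitors not called, Flt3, Zbtb46, Ltf, Mmp9, Tfe3 and Tfec). The code was tested on simulated data. Precision is limited by the number of arrays, 3 per diet.

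Alternatives were normexp background (offset 50), quantile normalization, median scaling (floor 5), dropping the filter or asking for all 6 arrays, the mean of a gene's probes, every probe by itself, slide as a block, slide 1 alone, each array left out, a trended and robust prior, array weights, outlier spots kept, the methods' t-test and the authors' deposited log2 values.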

Additional observations from a re-analysis of the deposited data

How the results depend on the processing

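The number of arrays (3 per diet, and 2 on the high-Chol diet for Ctss) and the slide, which holds 2 of the 3 high-Chol arrays apart, limit every comparison. No cathepsin was called lower under any alternative. Calls of higher cathepsins appeared under 2 alternatives. With array weights there were 3 (Ctss 1.07, Ctsc 0.63 and Ctsb 0.53, limma adjusted p from 0.0208 to 0.0341), beside 2201 genes of the whole array called higher. Without high-Chol array 1 there were 3, Ctss among them with 1 high-Chol array left, beside 2322 genes. The main fit called 450 of 16728 genes higher. Without high-Chol array 1 the diets lie on different slides. The cause of these calls was not tested.

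Over the fits that leave out 1 array, the difference ranged from 0.69 to 1.09 for Ctss, 0.54 to 0.75 for Ctsc, 0.46 to 0.56 for Ctsb, 0.32 to 0.45 for Ctsd, -0.18 to 0.0018 for Ctsz, -0.15 to -0.0039 for Ctse, -0.17 to -0.073 for Ctsa, -0.24 to -0.12 for Ctsl and -0.42 to -0.13 for Ctsh. In those fits 0 to 3 cathepsins were called higher, 1 to 9 class II genes and 2 to 12 macrophage markers. Other lysosomal genes called were 1 to 9 higher and 0 to 4 lower. Of the whole array, 42 to 2322 genes were called higher and 0 to 759 lower. Lower without overlap were 1 to 4 cathepsins. The share of all genes without overlap was not computed there, and fewer arrays make absence of overlap easier to reach. The lowest class II count came without normal chow array 2. The highest cathepsin and lysosomal counts came without high-Chol array 1, the fit in which diet and slide coincide.

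The median difference of the cathepsins was 0.26 with normexp background, 0.13 with quantile normalization, 0.060 without a filter (which adds Ctsk), 0.16 with slide as a block or on slide 1 alone, -0.30 with median scaling and -0.31 in the authors' deposited values. The median of all genes was -0.26 with median scaling and -0.28 in the deposited values. In the same order Ctss had 0.72 and 0.77, Ctsc 0.42 and 0.41, Ctsb 0.27 and 0.26, and Ctsd 0.15 and 0.14. The sign turned with normexp for Ctsa (0.15), Ctsh (0.024), Ctsl (0.22) and Ctsz (0.26), with quantile normalization for Ctsa (0.034), Ctsl (0.093) and Ctsz (0.13), with slide as a block and on slide 1 alone for Ctsh (0.012) and Ctsz (0.16), and with array weights for Ctse (0.0031).

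The class II count fell to 0 with normexp, no filter, slide as a block, slide 1 alone and the methods' t-test. Macrophage markers called were 0 with normexp and with the methods' t-test, 1 with no filter, slide as a block and slide 1 alone, and 16 with array weights. Other lysosomal genes called higher were 0 with normexp, no filter, slide as a block, slide 1 alone and the methods' t-test, 3 with median scaling and 10 with array weights, which also called 5 lower. Genes of the whole array called higher were 0 with normexp, 26 without a filter, 11 with slide as a block, 3 on slide 1 alone, 4 with the methods' t-test and 2201 with array weights.

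With normexp background the change against the macrophage markers was 0.12 for Ctss, -0.21 for Ctsb, -0.41 for Ctsd, -0.84 for Ctsz, -1.65 for Ctse, -0.94 for Ctsa and -0.88 for Ctsl. With that background 17 of the 36 pairs did not overlap, and the share of all pairs of genes was not computed for it. No paired analysis was possible because the labels do not tie an array of 1 diet to an array of the other.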
